A study of Homo sapiens with 3 samples.

Results

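Accessible chromatin was examined around 9 genes that encode the amyloid precursor protein family and the proteases that cut it: APP, APLP1 and APLP2, the substrates; ADAM10, an alpha-secretase; BACE1 and BACE2, the aspartyl proteases of the beta-secretase family; and PSEN2, NCSTN and PSENEN, subunits of gamma-secretase. The cells, labelled neurons, came from the established human stem cell line KOLF2.1J (induced pluripotent), carried the neurogenic factor NGN2, and were used at day 14 of differentiation. All 3 samples, labelled biological replicates, form 1 group of this 1 line with no other treatment, genotype or control group, and the promoter that drives NGN2 is not given in the sources used here. ATAC-seq marks accessible DNA by inserting adapters with the Tn5 transposase, and the authors combined the samples into 1 list of accessible regions, so no value has a replicate error. A region belonged to a gene when its summit, the position of highest signal, lay in the gene body given by RefSeq (GRCh38.p14) or within 50 kb of its outer ends. By this rule the 9 genes held 52 of the 65234 distinct regions (0.0797%), or 129 of the 145092 summits listed, and no region fell in more than 1 of the 9 windows.

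APP is a single-pass membrane protein with a large extracellular part. Cleavage by an alpha-secretase or by the beta-secretase sheds that part, and gamma-secretase then cuts the remaining stub within the membrane. The beta and gamma cuts together release the amyloid-beta peptide, and an alpha cut falls within that stretch. APLP1 and APLP2 are paralogues of APP that are shed in a similar way but lack the amyloid-beta sequence. Neurons are known for high levels of APP and of BACE1.

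Each region has a fold enrichment, which is the authors' ratio of the tags at its strongest summit to a background of expected tags. The pooled tag count behind it was recovered from that ratio and the p-value, and ranged from 104 to 2811 over the 52 regions, for counting errors of 9.81% and 1.89%. The background recovered with it was the same, 29.2 tags, in regions on chromosomes 1, 15, 19 and 21, so it need not be a local value. Intervals beside tag counts are exact Poisson 95% intervals and cover counting error only, since amplified tags are not independent molecules. The depth of each sample is not known from the list. In bulk chromatin, a site that is open in more of the cells and a site that is more open in each cell cannot be told apart. Gene starts and strands came from a RefSeq table that lists starts for 8 of the 9 genes. A start was called accessible when the strongest summit of a region lay within 1 kb of it. BACE2 was not matched in that table, and its outer ends were used.

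The stretch of 250 bases before the start is shown for the 6 genes in which the strongest summit lay inside that stretch, so that each summit can be placed on its sequence. All are RefSeq sequence of GRCh38.p14, written 5′ to 3′ along the gene, and the last base is the one before the start. Capitals mark matches on either strand to any of 11 words: GGGCGG (the GC box), TGACGTCA (the cyclic AMP response element), CACGTG (the E-box of USF and MYC), CAGATG (an E-box of proneural factors), CAGCTG (another such E-box), CCAAT (the NFY box), TATAAA (the TATA box), TGANTCA (the AP-1 site), and the longer consensus words for NRF1, YY1 and CTCF.
APP, chr21:26170771-26171020, minus strand: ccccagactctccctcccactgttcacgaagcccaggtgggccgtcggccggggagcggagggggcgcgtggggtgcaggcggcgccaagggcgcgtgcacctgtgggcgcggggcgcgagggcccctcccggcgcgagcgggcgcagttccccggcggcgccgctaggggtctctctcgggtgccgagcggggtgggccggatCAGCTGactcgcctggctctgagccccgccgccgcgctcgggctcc
BACE1, chr11:117316257-117316506, minus strand: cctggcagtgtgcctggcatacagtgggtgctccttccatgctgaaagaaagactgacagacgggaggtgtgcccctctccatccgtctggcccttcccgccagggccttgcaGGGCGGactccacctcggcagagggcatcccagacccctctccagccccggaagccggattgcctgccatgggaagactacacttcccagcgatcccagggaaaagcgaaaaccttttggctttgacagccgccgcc
PSEN2, chr1:226870366-226870615, plus strand: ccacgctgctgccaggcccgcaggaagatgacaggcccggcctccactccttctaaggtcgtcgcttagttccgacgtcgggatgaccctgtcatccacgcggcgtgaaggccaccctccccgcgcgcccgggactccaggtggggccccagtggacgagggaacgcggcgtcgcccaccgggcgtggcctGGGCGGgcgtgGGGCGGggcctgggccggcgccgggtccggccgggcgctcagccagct
NCSTN, chr1:160343133-160343382, plus strand: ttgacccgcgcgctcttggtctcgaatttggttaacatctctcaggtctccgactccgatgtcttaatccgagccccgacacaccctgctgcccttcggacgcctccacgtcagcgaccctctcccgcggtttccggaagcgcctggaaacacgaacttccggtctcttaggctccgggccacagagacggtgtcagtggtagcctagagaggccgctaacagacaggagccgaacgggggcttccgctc
PSENEN, chr19:35745401-35745650, plus strand: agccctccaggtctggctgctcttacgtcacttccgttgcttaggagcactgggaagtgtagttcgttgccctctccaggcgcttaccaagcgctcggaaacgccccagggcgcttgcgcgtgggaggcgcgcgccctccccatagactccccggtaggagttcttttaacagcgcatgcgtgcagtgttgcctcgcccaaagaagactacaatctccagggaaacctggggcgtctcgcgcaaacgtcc
ADAM10, chr15:58749708-58749957, minus strand: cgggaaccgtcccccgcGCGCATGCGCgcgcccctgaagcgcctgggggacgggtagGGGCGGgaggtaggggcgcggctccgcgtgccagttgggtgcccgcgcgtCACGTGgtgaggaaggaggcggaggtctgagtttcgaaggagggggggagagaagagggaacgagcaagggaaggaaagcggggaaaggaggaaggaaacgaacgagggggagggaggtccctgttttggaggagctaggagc

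These sequences differ in the words they hold. In APP the summit lay 40 bp before the start at 26170770, next to the only marked word, a CAGCTG that ended 41 bp before it. ADAM10 held 3 of the words, the NRF1 word 233 to 224 bp before the start, a GC box and a CACGTG, with the summit at the first base shown. NCSTN and PSENEN held none of the 11, although their starts were accessible. BACE1 had 1 GC box in the stretch, 137 to 132 bp before the start, and PSEN2 had 2, while a CAGCTG that crosses the PSEN2 start is cut off by the printed end. Over the whole 300 bases of the table, which reach 50 bases past the start, GGGCGG was found in 5 of the 8 matched genes (62.5%), against 56.3% of 22199 promoters of protein-coding genes. APLP1 and APLP2 carried 7 and 5 copies of it, and those in APLP2 include a pair that share 1 base. CAGCTG was found in 2 of 8 (APP and PSEN2), against 18.0% of promoters, CACGTG and the NRF1 word in 1 of 8 (ADAM10), against 8.34% and 1.50%. The other 7 words were in none of these 8 promoters, and are present in 34.7% (CCAAT), 12.2% (CAGATG), 9.47% (TATAAA), 6.15% (TGANTCA), 2.26% (TGACGTCA), 1.18% (YY1) and 0.0811% (CTCF) of promoters. A match describes letters only. The shares cover every listed promoter, accessible or not, whereas each member counts by a single accessible promoter. For APP, which has 2 listed starts, these counts use the one at 26170770, in whose promoter the summit lay. The promoter of the upstream start at 26171128 holds TATAAA (on the opposite strand only) and TGANTCA and no CAGCTG. With it, 6 of the 11 words in place of 4 were found in a member.

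With the same promoters, GC content ran from 60.0% in PSENEN to 80.7% in APLP2, and 7 of the 8 were above the 62.3% median of all promoters. That median, like the CpG median below, covers every listed promoter of protein-coding genes, accessible or not. Each member is represented by a single accessible promoter, so the selections are unlike. Whether the members differ from other accessible promoters was not tested. The 3 substrate genes were the highest of the 8 at 77.3% (APP), 77.7% (APLP1) and 80.7% (APLP2). This rests on the APP start chosen: the promoter of the upstream APP start has 49.3% GC (percentile 18.8), which would make APP the lowest of the 8 and leave 6 of the 8 above the median. The ratio of observed to expected CpG was above the median of 0.737 in 7 of the 8, and reached 0.996 in ADAM10. BACE1 was the exception at 0.557, below the median but above the first quartile of 0.352.

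The most upstream listed start of each matched gene was accessible. The strongest summit of a region lay within 1 kb of it in 8 of 8 genes, against 68.4% of the 15842 protein-coding genes with a listed start. With outer gene ends in place of starts, which brings in BACE2, the count was 9 of 9 against 66.7% of 20037 genes. All 9 regions contained the start or the BACE2 end itself. The strongest summit was within 250 bp of the most upstream listed start in 5 of the 8, namely BACE1, PSEN2, NCSTN, PSENEN and ADAM10. Neither the regions that contain a start nor those within this distance were counted over all protein-coding genes. Whether the members differ from other accessible starts in these respects was therefore not tested.

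The strength of these regions depended on the measure. Fold enrichment ranged from 5.36 to 15.4, with a median of 8.95 over the 8 matched genes, and only 3 (NCSTN, ADAM10 and BACE1) exceeded 11.0, the median of the 10843 accessible starts. BACE1, at 11.2, was barely above it. By pooled tags 6 of the 8 exceeded the median of 994, although the interval of NCSTN (939.9 to 1065) includes that median. The order of the genes changed as well: PSENEN was lowest of the 9 by fold enrichment and second to ADAM10 by tags. By definition the 2 measures differ only by the background, since fold enrichment divides the tags by it, each with a pseudocount of 1. That background was 292 tags in PSENEN (percentile 99.5 of accessible starts) and 64.0 in NCSTN (percentile 25.6). What set the backgrounds was not tested.

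**Figure D1:**
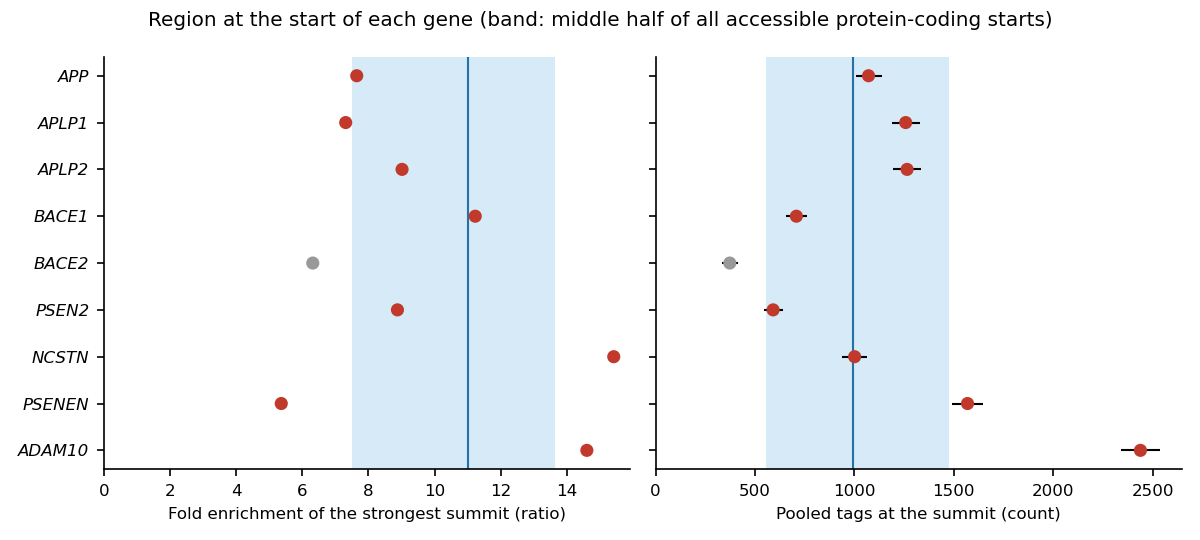
Fold enrichment (left, ratio) and pooled tags (right, count, with exact Poisson 95% intervals) of the strongest summit at the start of each gene. The blue band spans the quartiles and the line the median of 10843 accessible protein-coding starts, and BACE2 is grey because an outer end was used. NCSTN at 15.4 and ADAM10 at 14.6 lie above the band on the left, and ADAM10 at 2439 tags is far above it on the right.

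Among the substrates, APP (gene 351, chromosome 21 from 25880550 to 26171128, minus strand) had a start region of 2134 bp from 26169094 to 26171227. It held 8 summits, the most of any of the 52 regions, at 49, 318, 576, 787, 1133, 1392, 1638 and 1893 bp downstream of the upstream listed start. Their fold enrichments were 3.21, 7.65, 4.00, 3.38, 2.82, 3.30, 2.93 and 4.11 in that order. The second summit thus stood above the others, which lay between 2.82 and 4.11. It collected 1071 tags (interval 1008 to 1137), percentile 54.2 of accessible starts, and by fold enrichment it was at percentile 25.8. The listed start of APP-DT, a divergent transcript on the plus strand, lay 57 bp from this summit.

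APLP1, a paralogue expressed mainly in neurons (gene 333, chromosome 19 from 35868574 to 35879792, plus strand), had a start region of 2103 bp from 35868133 to 35870235 with 6 summits. The strongest was 896 bp downstream of the start, with a fold enrichment of 7.31 and 1258 tags (interval 1189 to 1329). A weaker summit, 5.36 and 914 tags, lay 60 bp before the start. The strong summit was 113 bp from the listed start of LOC107985317, which runs the other way, so the region spans both starts.

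APLP2, the broadly expressed paralogue (gene 334, chromosome 11 from 130069894 to 130144805, plus strand), had a start region of 1993 bp from 130068794 to 130070786 with 4 summits. The strongest had a fold enrichment of 9.02 and 1265 tags (interval 1196 to 1337). It lay 752 bp before the listed start and 78 bp outside the gene body, whose outer end is further upstream than the listed start. An end of LOC107984432 lies within 1 kb of that summit, so the region cannot be assigned to APLP2 alone. The summit nearest the listed start, 381 bp before it, had 3.98 and 555 tags. In these 3 genes the start regions were the widest of the 9, at percentiles 96.3, 95.8 and 94.0 of accessible starts, and the other 6 measured 1051 to 1677 bp. Backgrounds in the 3 genes were 139, 171 and 139 tags, against a median of 88.1.

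ADAM10 (gene 102, chromosome 15 from 58588809 to 58749707, minus strand), a membrane metalloprotease and the main constitutive alpha-secretase of neurons, had the most tags at its start. The region of 1677 bp from 58748790 to 58750466 had its strongest summit 250 bp before the start, with a fold enrichment of 14.6 and 2439 tags (interval 2343 to 2538), percentiles 84.4 and 97.3. The others, 338 and 678 bp downstream of the start, had 3.92 and 2.90.

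The beta-secretase BACE1 (gene 23621, chromosome 11 from 117285698 to 117316256, minus strand) had a start region of 1247 bp from 117315655 to 117316901. Its strongest summit was 87 bp before the start, with a fold enrichment of 11.2 (percentile 52.5) and 708 tags (interval 657 to 762). The table lists 3 BACE1 starts, and no summit lay within 1 kb of the inner ones at 117299722 and 117295573. BACE2, its paralogue (gene 25825, chromosome 21 from 41168160 to 41282530), had a region of 1557 bp from 41167404 to 41168960 across its lower-coordinate end. With a fold enrichment of 6.32 and 373 tags (interval 336 to 413), it was the weakest of the 9 by tags, and its interval does not overlap that of BACE1. MIR3197 lies within 1 kb of that summit.

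Of the gamma-secretase genes, NCSTN, which encodes the substrate-binding glycoprotein nicastrin (gene 23385, chromosome 1 from 160343383 to 160358949, plus strand), had the highest start by fold enrichment. Its region of 1367 bp from 160342622 to 160343988 reached 15.4 at a summit 69 bp before the start, percentile 90.0, with 1001 tags (interval 939.9 to 1065), percentile 50.5. COPA, a coat protein gene of the Golgi, starts 133 bp away on the other strand, and its start lay 64 bp from the same summit. PSEN2 (gene 5664, chromosome 1 from 226870616 to 226903668, plus strand), a catalytic presenilin, had a single summit 19 bp before its start in a region of 1161 bp from 226870147 to 226871307. It had a fold enrichment of 8.88 and 591 tags (interval 544 to 641), percentiles 34.4 and 26.4.

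PSENEN, the smallest subunit of the complex (gene 55851, chromosome 19 from 35745651 to 35747519, plus strand), had its strongest start summit 167 bp before the start, with a fold enrichment of 5.36 and 1569 tags (interval 1492 to 1649). The region of 1051 bp from 35744691 to 35745741 was the narrowest of the 9. The start of U2AF1L4, a splicing factor gene on the other strand, was 66 bp from that summit and 233 bp from the PSENEN start.

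**Figure D2:**
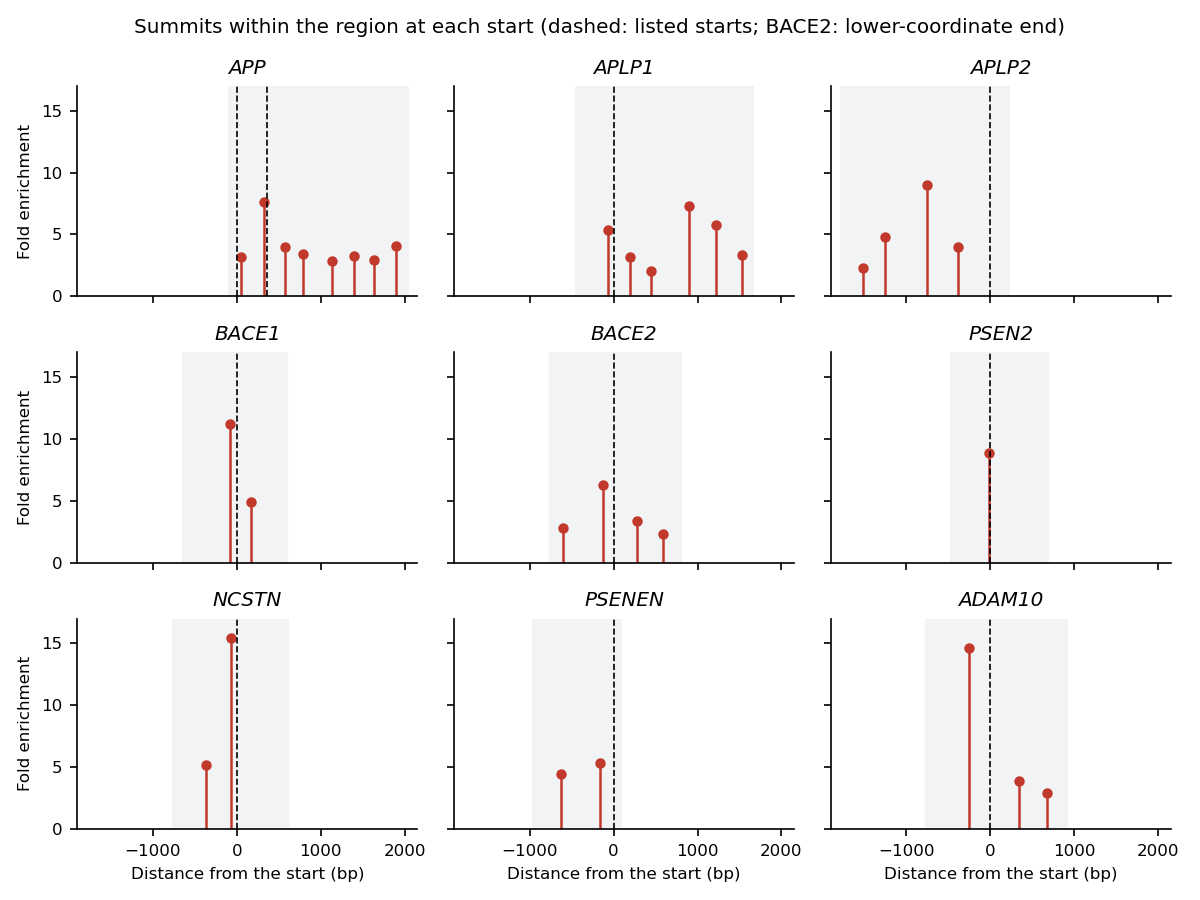
Fold enrichment (ratio) of every summit in the region at the start of each gene, against distance from the most upstream listed start along transcription (bp). Grey marks the region, dashed lines the listed starts, and BACE2 is placed by its lower-coordinate end. The regions of APP, APLP1 and APLP2 are the widest and hold 8, 6 and 4 summits, whereas PSEN2 has 1.

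A start of another gene on the opposite strand lay within 1 kb of the member's own start in 5 of the 8 genes: APP, APLP1, PSEN2, NCSTN and PSENEN. The partner was a protein-coding gene in NCSTN and PSENEN, and a long non-coding RNA in APP, APLP1 and PSEN2 (LOC105373119, 66 bp away). Of all protein-coding genes with a listed start, 24.5% have such a partner. Accessible starts were found for 91.2% of genes with a partner and 61.1% of those without. Each of the 5 regions lay at both starts and cannot be assigned to 1 of the genes alone. BACE1, APLP2 and ADAM10 had no listed partner.

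The windows differed widely in the number of regions, from 2 around BACE1 to 14 around APP. Each count was set against windows of other protein-coding genes within 25% of the same length, as a percentile without a test. APLP1 (8 regions, percentile 88.0), APP (14, 83.0) and PSENEN (7, 81.3) were highest. NCSTN had 6 regions (72.6) and BACE2 had 6 (59.9). PSEN2 with 3 (32.2), APLP2 with 3 (23.6), BACE1 with 2 (19.4) and ADAM10 with 3 (13.3) were below the middle, so 5 of the 9 were above the median of their reference windows and the median percentile was 59.9. The PSEN2 percentile became 58.8 when only regions above the median fold enrichment were counted, and that of BACE2 became 41.7 with 100 kb either side. The PSENEN window holds 8 other protein-coding genes, and against windows with a similar number its percentile was 48.2. For APP, with no other protein-coding gene in its window, the same comparison gave 83.3.

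**Figure D3:**
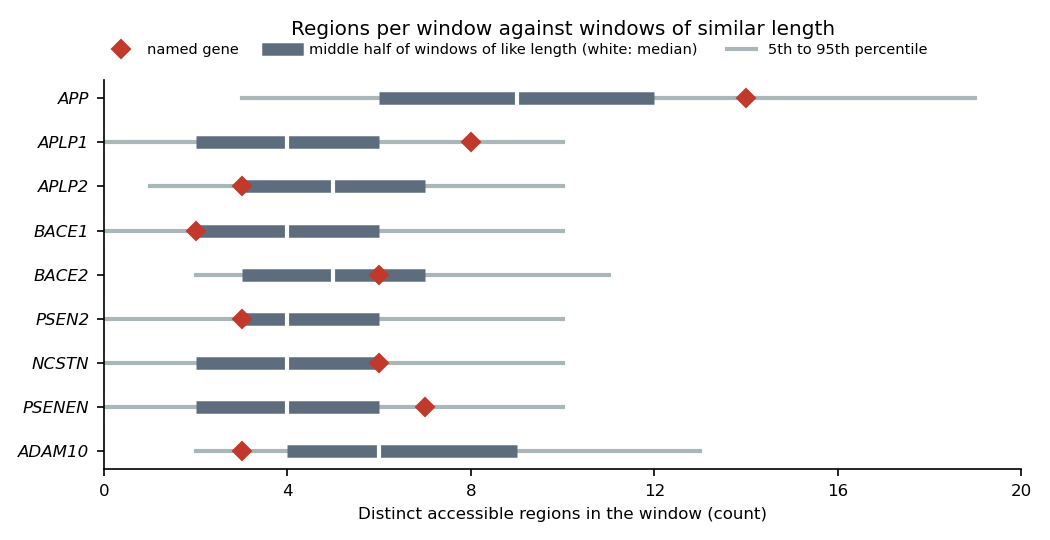
Number of distinct regions in each gene's window (red diamonds) beside protein-coding windows within 25% of its length (thick bar, quartiles; white mark, median; thin line, 5th to 95th percentile). APP at 14, APLP1 at 8 and PSENEN at 7 lie above the quartile bars, and ADAM10 at 3 lies below its bar.

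Within APP the accessible regions were spread along the whole gene. Each region was placed by its strongest summit. Besides the start region, 8 regions lay inside the gene, at 22.8, 54.5, 99.9, 137, 173, 241, 259 and 289 kb from the upstream start. Their fold enrichments were 4.50, 5.63, 3.71, 4.97, 4.88, 4.68, 5.63 and 5.95, a narrow range below that of the start. Their summits collected 111 to 208 tags, against 1071 at the start. The 3 highest were chr21:25881657-25882269 (5.95), near the far end, chr21:25912056-25912767 (5.63) and chr21:26116345-26117051 (5.63). With the start region included, the gene body held 9 regions against a median of 6 in 658 genes of similar length (percentile 75.3).

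Outside APP, 5 regions completed the window. The strongest of the 14 by fold enrichment was chr21:26177672-26178379, at 8.25 with 322 tags (interval 288 to 359), 7.08 kb upstream of the start and inside APP-DT. Its tag interval lies well below that of the start region, so the order of the 2 regions depends on the measure. A region 19.0 kb upstream had 4.45, and 3 regions 23.0, 29.9 and 42.8 kb beyond the far end had 4.75, 6.86 and 3.81.

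ADAM10 gave a different picture over a gene of 161 kb. A single region had its strongest summit inside it, chr15:58666990-58667381, 82.6 kb from the start, with 3.47 and 104 tags (interval 85.0 to 126), the lowest tag count of the 52. Counted by strongest summit, its gene body held 1 region against a median of 3 in 1320 genes of similar length (percentile 16.1). The third region of the window, chr15:58770571-58772205 with 13.9 and 2380 tags, lay 21.5 kb upstream of the start, at the start of MINDY2 (97 bp) and of MINDY2-DT.

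APLP1 is a gene of 11.2 kb with no region inside it apart from that at its start. A region at the far end, chr19:35879645-35880332, inside LOC124904705, had its summit 153 bp beyond the gene, at 5.14 with 222 tags (interval 194 to 253). The other 6 regions had fold enrichments from 2.85 to 7.31. They included 2 inside KIRREL2, 1 inside NPHS1, which encodes nephrin of the kidney filter, and 1 in NFKBID at 7.04, 63 bp from a listed NFKBID start. APLP2 held 1 region inside the gene, chr11:130131950-130132571, 61.9 kb from the start at 5.13 with 160 tags. A further one lay 378 bp beyond its far end (chr11:130144667-130145449, 5.04, 183 tags), and no other region lay within 50 kb on either side.

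Of BACE1, only a weaker summit of the start region lay inside the gene body, 171 bp downstream of the start with 4.94 and 313 tags. The only other region of its window, chr11:117327454-117328673, lay 11.6 kb upstream, 44 bp from the start of CEP164, a centriole gene, and exceeded the BACE1 start in fold enrichment (12.9) and in tags (1060, interval 997 to 1126). BACE2 had 6 regions. Of the 2 inside, chr21:41210375-41211341 lay 42.7 kb from the lower end at 5.68 with 270 tags, and chr21:41169046-41169309, 1.03 kb from that end, had 2.91 and the lowest score of the 52, 596. Its far end carried chr21:41282749-41283750, 892 bp outside the gene at 9.14 with 279 tags (interval 247 to 314). That region was thus higher in fold enrichment than the lower end and lower in tags. Below the lower end, chr21:41146879-41148015, 20.6 kb away at an end of LINC00323, had 4.20 and 164 tags, and chr21:41133993-41134219, 34.1 kb away, had 4.13 and 124 tags.

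A region lay at both outer ends of 4 of the 9 genes, APLP1, APLP2, BACE2 and PSENEN, against 5.36% of protein-coding genes. In PSENEN, which is 1.87 kb long, the region beyond the far end, chr19:35748199-35748869 (8.56, 1756 tags), was 123 bp from a start of the neighbour LIN37, and that of APLP1 lay at an end of LOC124904705. In these 2 genes the far-end region therefore cannot be assigned to the member alone.

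The gamma-secretase genes held at most 1 region placed inside the gene body. Genes of similar length had medians of 1 (PSEN2), 0 (NCSTN) and 0 (PSENEN), for percentiles of 23.3, 75.6 and 42.1. PSEN2 and PSENEN had no summit inside the gene, and NCSTN had 1, chr1:160354473-160354848, 11.2 kb from the start at 3.61 with 122 tags (interval 101 to 146). Most of the strong regions near them lay at other genes. In the PSEN2 window chr1:226939381-226940738, at the start of COQ8A 36.5 kb beyond the far end, had 15.1 and 2811 tags (interval 2708 to 2917), the most of the 52 regions. In the NCSTN window chr1:160399687-160401921, at VANGL2, had 8.25 and 1070 tags, and chr1:160374776-160376999, at an end of LOC105371466, had 7.67 and 580 tags. The PSENEN window held regions at KMT2B (10.3), PROSER3 (14.4) and ARHGAP33 (14.2). Its highest, chr19:35702122-35703139, 43.1 kb before the gene and at no annotated gene end, had 16.3 and 1434 tags (interval 1361 to 1510), the highest fold enrichment of the 52.

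**Figure D4:**
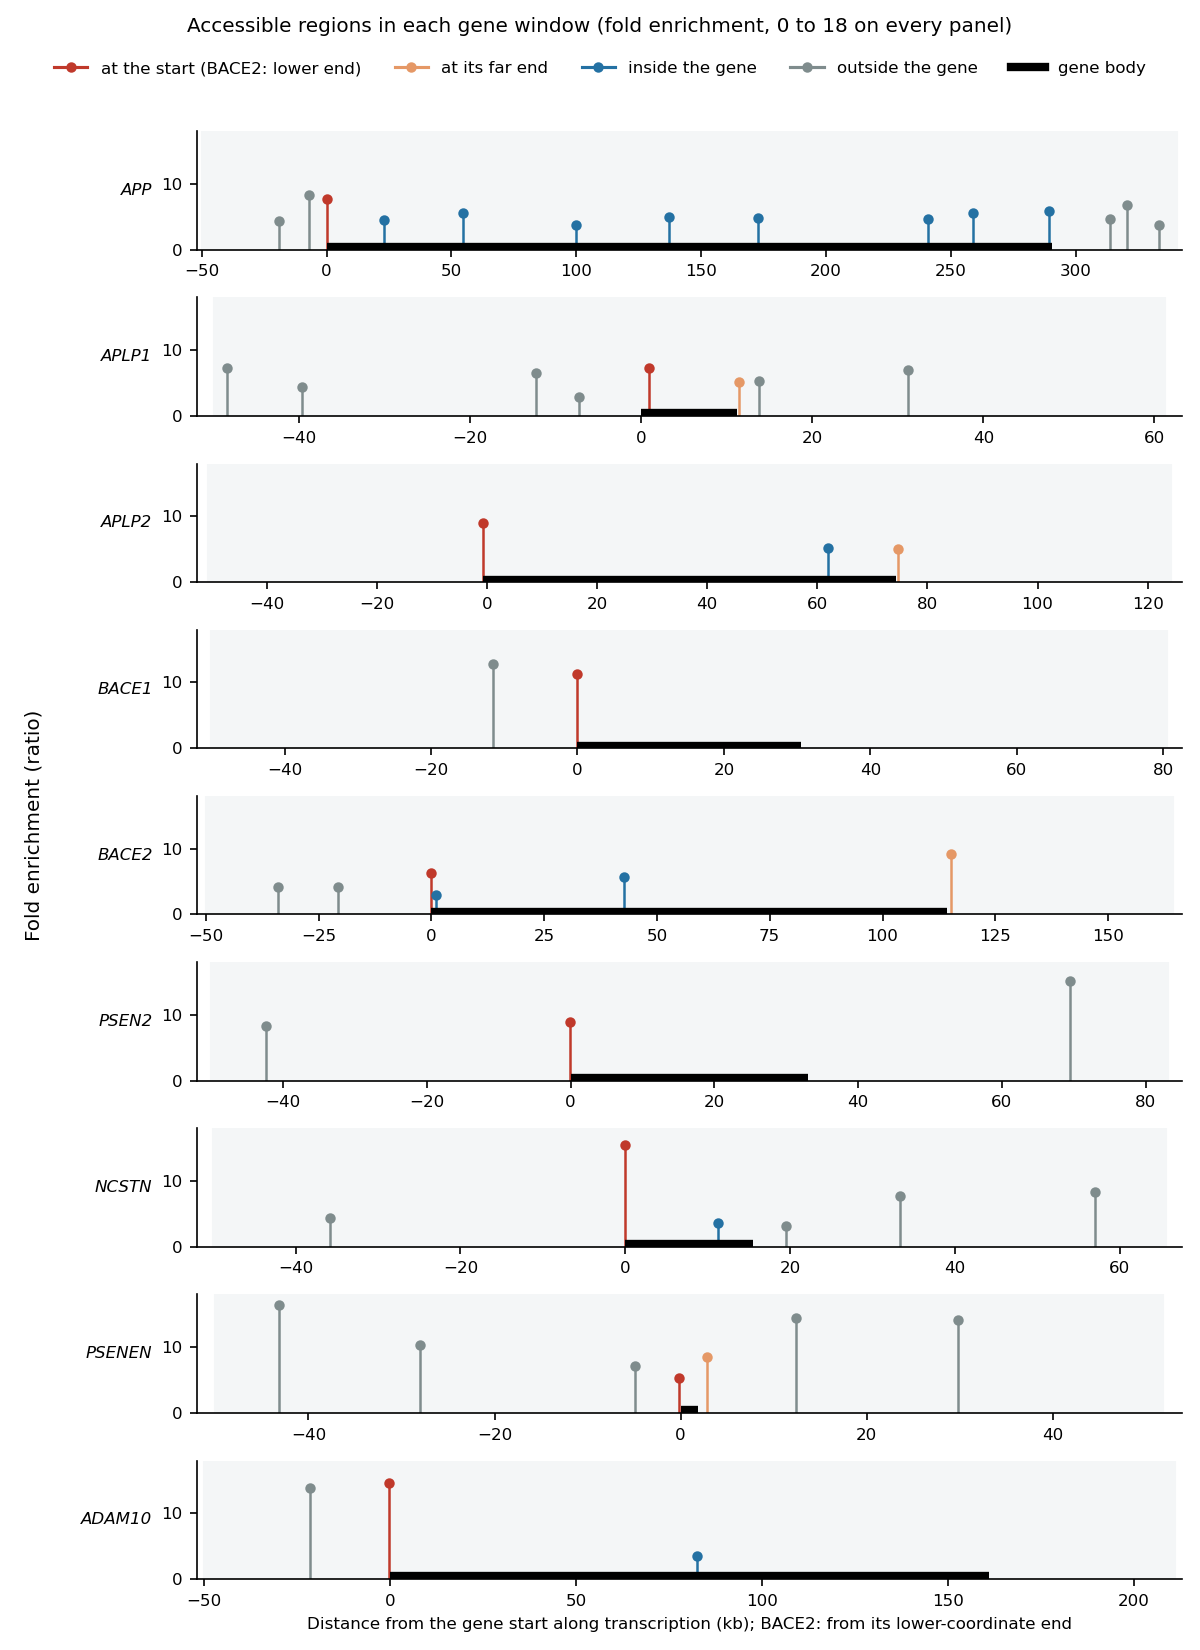
Fold enrichment (ratio, same scale on every panel) of each of the 52 regions against distance from the gene start along transcription (kb). Colours give the place of the strongest summit, the black bar is the gene body and the shading the window of 50 kb on either side. Besides its start region APP has 8 regions inside the gene, whereas APLP1, BACE1, PSEN2 and PSENEN have none.

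By place, the 9 start regions (BACE2 by its lower end) had a median fold enrichment of 8.88 and a median of 1071 tags. The 13 regions inside genes had medians of 4.88 and 170.0. They did not overlap the starts in tags (104 to 270 against 373 to 2439). In fold enrichment they did (2.91 to 5.95 against 5.36 to 15.4). The same split was not made over all genes, so whether either pattern is particular to these members was not tested. The 4 regions at far ends had medians of 6.85 and 250.5. Of the 26 regions outside the genes, 13 lay at an end or listed start of another gene, with a median fold enrichment of 8.25, and 13 lay elsewhere, with a median of 4.75. For all 65234 regions the medians were 5.60 and 238 tags. At the edge of the windows, the region just inside the limit was 48.4 kb from APLP1 (7.31, 220 tags) and the one just outside was 51.7 kb from PSENEN (8.59, 284 tags).

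A list of 20 other genes of the pathway was read in the same way. It holds APH1A and APH1B of gamma-secretase, other ADAM proteases, adaptors of the APP tail, sorting and interacting proteins, and enzymes that degrade amyloid-beta. The first listed start was accessible in 15 of the 15 genes that have one, against 68.4% of all protein-coding genes, and an outer end in 19 of 20, against 66.7%, with MME (neprilysin, an amyloid-beta degrading protease) having a region at a listed start only. At their ends the median fold enrichment was 10.2, against 10.6 for all protein-coding genes with an accessible end. The 3 highest were GGA3 at 14.8, an adaptor that sorts BACE1 to lysosomes, APH1A at 13.2 and APBB3 at 13.0.

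Markers of cell identity did not stand apart clearly, and each count is to be read against the 66.7% of protein-coding genes with an accessible outer end. Neuronal genes were near that share, with 6 of 8, and the others, TUBB3 and RBFOX3, had a region at a listed start. Of the glutamatergic genes SLC17A6 was accessible (4.27) and SLC17A7 was not. Both GABAergic genes, GAD1 and GAD2, had an accessible outer end (2.89 and 5.08), although no region had its strongest summit within 1 kb of a listed start of GAD1. Among 4 pluripotency genes only LIN28A had one (3.04), and POU5F1, NANOG and TDGF1 had none. Of the glial genes, neither microglial marker had a region at an end or listed start, GFAP and MOG had none either, AQP4 had one at 2.83, and MBP had one at a listed start.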

How the data were processed

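ATAC-seq libraries of 3 samples of 1 group gave 1 list of accessible regions, and nothing per sample was analysed here. Per the labels, the list is an optimal set chosen by irreproducible discovery rate, a method that keeps regions ranked alike in the sets of reads compared. Which sets were compared is not given in the sources used here. Per the submitters' processing notes the build is hg38. The aligner, peak caller and filters are not given in the sources used here. The authors deposited, for each summit, a fold enrichment (a linear ratio), −log10 p from 5.92 to 2945, −log10 q from 4.28 to 2939, and a score from 540 to 1000 whose scaling is not stated.

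Summits sharing an interval were merged, keeping the values of the summit with the highest −log10 p. The pooled tag count is the whole number that gives the deposited −log10 p under a Poisson upper tail whose ratio, with a pseudocount of 1, is the fold enrichment. The largest miss was 0.00079 units, against a median of 0.266 for the next best whole number. This is inferred from the values, not stated by the authors, and was tested on simulated data. Positions are counted from 1. Gene ends, starts and promoters came from RefSeq tables for GRCh38.p14, which give no exons. Of the 9 genes, 8 have listed starts. The most upstream was used, except for promoter words and base composition, which used the listed start nearest the strongest summit (this differs for APP only). One pathway or marker gene was matched by an older symbol.

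The design allows no test, so values are read against all protein-coding genes. Alternatives were other distances and windows, a score of at least 830, overlap in place of the summit, all summits, regions above the median fold enrichment, closer length matching and tag counts. Using any listed start, outer ends, the upstream APP promoter, or windows with a similar number of coding genes was added after seeing the data. The members and lists were chosen with earlier results of these data known. The naming rule took every member, its start region, its regions inside the gene and the strongest outside, and pathway genes without an accessible start or among the 3 highest; other regions and neighbours are named only for location and were chosen after their values were seen. Computations used Python 3.11.15, numpy 2.4.6, scipy 1.17.1, pandas 2.3.3 and matplotlib 3.10.9.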

Additional observations from a re-analysis of the deposited data

How the results depend on the processing

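No paired analysis was possible because there is only 1 group of 3 samples, merged into a single list; leaving out a replicate could not be done either. Members with an accessible start ran from 6 of 8 within 500 bp to 9 of 9 by outer ends. APLP1 and APLP2 dropped out at 500 bp, where only the strongest summit of each region was counted. Weaker summits of their start regions lay 60 bp (APLP1) and 381 bp (APLP2) before the starts. The matching shares of all protein-coding genes were 62.8% and 66.7%. Pathway genes ran from 12 of 15 to 19 of 20. The lower count came within 500 bp (62.8% of all) and above the median fold enrichment (59.1%), the higher by outer ends (66.7%). The 52 regions became 36 with 20 kb and 77 with 100 kb either side, 15 in gene bodies alone, 30 above the median fold enrichment and 129 as summits, which follows from how much each setting admits. The median percentile of the window counts, 59.9, became 42.1 in gene bodies, 56.6 with 20 kb and 41.7 with 100 kb either side, 57.0 at a score of at least 830, 56.9 with reference windows within 10% in length and 48.2 with a similar number of coding genes. The median percentile of the starts by fold enrichment, 34.9, became 59.4 by tag count, 40.7 within 500 bp and 36.5 within 2 kb. With the upstream APP promoter, chosen after seeing the data, the GC content of APP moved from rank 6 to rank 1 from the lowest of 8. The causes of the percentile shifts were not tested. Over all alternatives run, ADAM10 ranged from 8.65 to 25.9, BACE1 from 14.4 to 39.0, APP from 74.5 to 89.5 and APLP1 from 75.7 to 93.3 by window count, whereas PSENEN ranged from 42.1 to 93.7. At the start, PSENEN ranged from percentile 11.2 by fold enrichment to 78.9 by tag count. By window count, PSEN2 ranged from 15.4 to 58.8, BACE2 from 41.7 to 64.7, APLP2 from 12.4 to 50.0 and NCSTN from 59.1 to 85.2, so PSEN2, BACE2 and PSENEN fell on either side of the middle. Depth limits the weak regions most, since a summit of 104 tags has a counting error of 9.81%.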

Other observations

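Alternative starts of the members differed in base composition. The upstream APP start at 26171128 has a promoter of 49.3% GC (percentile 18.8 of protein-coding promoters). The TATAAA 30 to 25 bp before that start is on the opposite strand and reads TTTATA along the gene. By contrast, the promoter of the start at 26170770, where the strongest summit lay, has 77.3% GC (percentile 92.7). Both starts lie in the same accessible region. The inner BACE1 starts at 117299722 and 117295573, which had no region within 1 kb, have 52.7% and 52.3% GC and observed to expected CpG ratios of 0.0977 and 0.195, against 64.3% and 0.557 at the accessible start.

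Neighbouring summits within the start regions were 211 to 346 bp apart in APP, with a median of 258 bp over 8 summits, and 250 to 446 bp apart in APLP1, with a median of 308 bp over 6. The gaps in APLP2 had a median of 371 bp, and in ADAM10 of 464 bp.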
